A study of Mus musculus with 18 samples.

Results

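The question addressed here was whether HER2 DC1 and anti-semaphorin 4D given together moved tumor RNA levels by more or by less than the sum of the changes seen with either alone. All 18 samples of the series and all 768 genes of its NanoString metabolic pathways panel entered the comparison, and the 6 positive and 8 negative control probes did not. The tumors were grown from TUBO cells, a HER2/neu-driven mouse mammary carcinoma line, in female BALB/c mice that were treated over 3 weeks and killed at 1 time point. Each sample is labelled with 1 of 4 arms, which are an untreated control, dendritic cells called HER2 DC1 placed in a tumor, a blocking antibody against semaphorin 4D, and the combination of both. Each arm has samples called treated tumor and samples called untreated tumor, with 2 samples per kind of tumor in the control, DC1 and anti-semaphorin 4D arms and 3 in the combination arm. By these names, the untreated-tumor samples of the DC1 and combination arms are tumors in which DC1 was not placed. A DC1 or combination value over both kinds of tumor therefore averages tumors with and without placed DC1. All arms therefore share the strain, sex, cell line and schedule, and no arm with a control antibody or with dendritic cells lacking HER2 antigen was analysed here. The labels do not say which tumor of a control mouse counts as treated, nor whether any 2 samples share a mouse, and the p-values describe the spread between these samples alone.

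Dendritic cells take up antigen and show it to T cells on MHC molecules, together with costimulatory signals. Semaphorin 4D is a membrane and secreted protein that binds plexin-B receptors, and blocking antibodies against it have been studied as a means to let immune cells enter tumors. T cells that meet antigen signal through the T cell receptor, gain inhibitory receptors such as PD-1 and LAG-3, and release interferon gamma, which raises antigen presentation in the cells around them.

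The interaction of a gene is its combination level minus its DC1 level minus its anti-semaphorin 4D level plus its control level, on the log2 scale. It is 0 when the fold changes of the single arms multiply, positive when the combination lies above that product and negative when it lies below. Levels are given as log2(count + 1), scaled by the authors, with treated tumors named first. Panel counts ran from 203509 in untreated-tumor control replicate 2 and 238079 in untreated-tumor DC1 replicate 1 to 989309, and 462 genes were above the negative control limit in every sample, the limit being the mean plus 2 SD of the negative control probes of a sample. In 6 columns the values are whole numbers and in 12 they are counts times a factor, and every combination sample is among the 12. Treated-tumor combination replicate 2 stood apart, with the highest panel median, 8.23 against 7.06 to 7.97 in the other samples.

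No gene departed from additivity at an adjusted p under 0.05 in limma with Benjamini-Hochberg adjustment (0 of 768, 0.0%). The smallest adjusted p was 0.124 and was shared by 22 genes. At an unadjusted p under 0.05 there were 133 genes, 17.3% of the panel, of which 111 (14.5%) had a positive interaction and 22 (2.86%) a negative one. Over the whole panel 473 genes were positive and 295 negative, with a median interaction of 0.15. That balance depends on scaling: with each sample centred on its panel median, which removes 0.28 from every interaction, 321 genes were positive and the genes of unadjusted p under 0.05 split into 58 positive and 78 negative. Centring on housekeeping genes moved the median only to 0.16 and left 483 genes positive.

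The precision of the design was limited. The 95% interval of the interaction extended 0.709 to either side of the estimate in the median gene and 0.561 in the median gene among the 462. It lay wholly between a log2 interaction of -1 and 1 for 328 genes, of which 278 were among the 462. A weight estimated for each sample was the one setting that called a sizeable number of genes, 158, with 111 positive and 47 negative, and it gave the least weight (0.163) to treated-tumor combination replicate 2. Leaving out untreated-tumor combination replicate 1 called 8 genes, and leaving out treated-tumor DC1 replicate 1 called 3.

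The single arms set the reference for the interaction. DC1 against control called 12 genes, 1.56% of the panel, all higher, among them the antigen-presentation gene H2-M3, the PD-1 ligand Cd274, the NF-kB subunit Rela and the kynurenine-pathway enzyme Haao. That count was 0 with median centring, 1 with housekeeping centring and 0 with arm and replicate number as a random block, and it ran from 0 to 120 when 1 sample was left out. Anti-semaphorin 4D against control called no gene (0.0%), with 31 (4.04%) at an unadjusted p under 0.05. The combination against control called 378 genes (49.2%), 345 higher (44.9%) and 33 lower (4.3%), and the split became 130 higher and 184 lower with median centring and 248 higher and 87 lower with housekeeping centring. These 3 comparisons share the 4 control samples with each other and with the interaction.

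**Figure D1:**
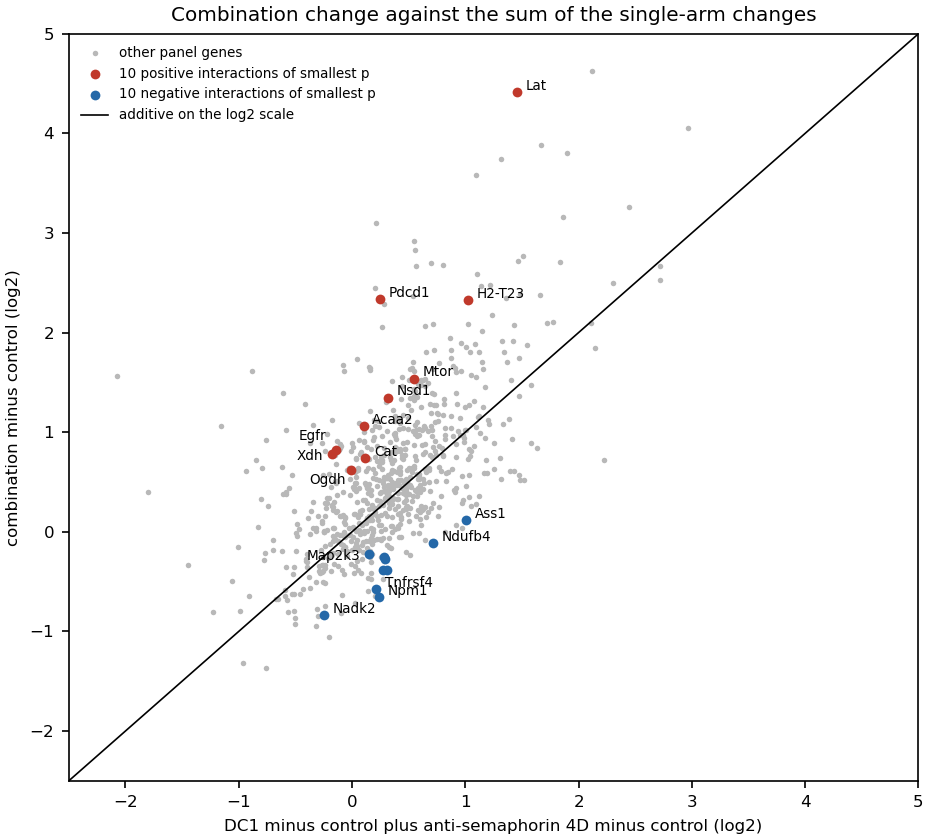
Each point is 1 of 768 panel genes. The horizontal axis is the sum of the DC1 and the anti-semaphorin 4D changes from control and the vertical axis is the combination change from control, both in log2 over both kinds of tumor. Genes on the line are additive. Colored are 10 positive (red) and 10 negative (blue) interactions of smallest unadjusted p among genes above the negative control limit in a whole group of samples. Housekeeping genes were left out. Their side of the line follows from the choice by sign, and none of the colored genes passed the adjusted threshold. Ass1 was at -0.89. Lat was at 2.96, but it was above the limit only in 5 combination samples, and at 0.38 with values raised to the limit.

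Among genes of antigen presentation, H2-T23, which encodes the non-classical MHC class I molecule Qa-1 that presents peptides to receptors of natural killer and T cells, had a positive interaction. Its promoter in RefSeq (GRCm38.p6, minus strand, chr17:36032652-36032951) is shown because the gene had the smallest p in this group, and the capitals mark a match to the interferon-stimulated response element, searched on both strands as GAAA followed, after any 2 bases, by GAAA. The capitals read it on the other strand.
H2-T23: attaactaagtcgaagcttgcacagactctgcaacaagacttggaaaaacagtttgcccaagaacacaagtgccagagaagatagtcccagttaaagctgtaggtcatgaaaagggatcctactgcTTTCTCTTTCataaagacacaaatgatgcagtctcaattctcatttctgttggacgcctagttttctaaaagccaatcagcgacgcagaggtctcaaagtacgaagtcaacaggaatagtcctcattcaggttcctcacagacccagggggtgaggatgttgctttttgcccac
The letters were found in 3.44% of 32851 listed mouse promoters and in 2.68% of the 747 promoters listed for panel genes, and a match describes letters, not a site in use.

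The H2-T23 level was 10.16, 9.84, 10.20 and 10.08 in the control samples and 9.99, 10.09, 10.02 and 10.26 with anti-semaphorin 4D. It was 11.17, 11.20, 10.89 and 11.04 with DC1. In the combination it was 12.03, 12.45 and 12.19 in treated tumors and 11.72, 13.27 and 12.72 in untreated tumors. Every combination sample was thus higher than every DC1 sample, every DC1 sample was higher than all controls, and the antibody samples overlapped the controls. Here and below, such separation describes levels and not the interaction. How many of the 768 genes show it was not counted, and the combination against control called 49.2% of them. The combination mean of 12.40 stood above an additive expectation of 11.09, an interaction of 1.30 (SE 0.33, 95% interval 0.60 to 2.01) or 2.47-fold, with an unadjusted p of 0.00122 and an adjusted p of 0.124. Against control, H2-T23 rose by 2.33 in the combination (adjusted p 7.46e-06).

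The classical class I heavy chain H2-D1 showed an interaction of 0.54 (SE 0.30), H2-M3, which presents formylated peptides, 0.72 (SE 0.34), and H2-Q2, a class Ib molecule, 0.91 (SE 0.38). Of the 9 measured genes for MHC class I and peptide processing, 6 were positive and 2, H2-T23 and H2-Q2, had an unadjusted p under 0.05, against 61.6% and 14.5% of the panel, so the share of positive genes was near the background. Among 5 MHC class II genes 4 were positive, and H2-Eb1, the beta chain of a class II molecule, had the smallest p. H2-Eb1 was 11.10, 11.16, 10.90 and 11.39 in controls, 11.61, 11.81, 11.25 and 11.67 with the antibody and 12.81, 11.23, 11.99 and 11.28 with DC1. In the combination it was 13.15, 15.11, 14.23, 12.59, 13.14 and 13.40. The lowest, from an untreated tumor, lay under 1 treated-tumor DC1 sample. Within each kind of tumor every combination sample was above every DC1 sample. The H2-Eb1 interaction was 1.32 (SE 0.55, adjusted p 0.238). That of the alpha chain gene H2-Aa was 0.69 with an interval from -0.56 to 1.94.

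The interferon-response list had 5 measured members, all with a positive estimate, against 61.6% of the panel. The median interaction of the list was 0.67, which was 0.39 after median centring. Only 1 of the 5 had an unadjusted p under 0.05, against 14.5% of the panel, and 4 stayed positive with values raised to the limit. Raising values gives an interaction of -0.23 to any gene at or under the limit in every sample. That value comes from the limits of the samples alone, so raised values do not have 0 as their reference. Irf1, a transcription factor induced by interferon, had an interaction of 0.53 (SE 0.34), and the T cell attractant Cxcl9 one of 1.09 (SE 0.85), with DC1 samples of Cxcl9 spread from 7.27 to 10.14.

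On the deposited values T cell markers had the highest median of the lists. All 14 measured T cell markers had a positive estimate, against 473 of 768 genes, and 9 of the 14 had an unadjusted p under 0.05, against 14.5% of the panel. The median of the list was 1.73, with 1.45 after median centring and 1.40 without treated-tumor combination replicate 2. Many of these genes were dim: 2 of the 14 were above the limit in no sample. With values raised to the limit 12 of 14 stayed positive and the median was 0.56. That was under the 0.82 of autophagy and lysosome genes, so the order of the lists depends on values under the limit. The summed counts of the 14 genes ran from 402 to 509 in controls, from 366 to 510 with the antibody, from 440 to 793 with DC1 and from 498 to 4107 in the combination. In bulk tumor RNA, more cells of a type and more RNA per cell cannot be told apart.

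Pdcd1, the gene of the inhibitory receptor PD-1, was at or near the limit outside the combination. It read 5.43, 5.22, 4.81 and 5.40 in controls, 4.86, 5.09, 5.23 and 5.25 with the antibody and 5.81, 5.39, 5.75 and 5.32 with DC1. In the combination it read 6.89, 9.27 and 8.08 in treated tumors and 6.10, 7.11 and 7.87 in untreated tumors. All 6 combination samples lay above the other 12 samples, and neither single arm separated from control. The interaction was 2.09 (SE 0.60, interval 0.81 to 3.37, adjusted p 0.124), and 1.80 with values raised to the limit.

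Lag3, an inhibitory receptor that binds MHC class II, was above the limit in every sample. It was 6.93, 7.12, 6.88 and 7.75 in controls, 6.78, 7.07, 6.69 and 7.10 with the antibody and 7.37, 6.91, 6.96 and 6.83 with DC1. The combination samples read 8.12, 10.01, 8.71, 7.56, 7.92 and 8.42, and the lowest of them was under the highest control. The interaction of Lag3 was 1.70 (SE 0.50, interval 0.65 to 2.75) or 3.25-fold, with an adjusted p of 0.124. Of the 10 measured inhibitory checkpoint genes 9 were positive, against 61.6% of the panel, and 6 had an unadjusted p under 0.05, against 14.5%. Their median was 1.39, or 0.34 with values raised to the limit and 1.12 without treated-tumor combination replicate 2.

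The PD-1 ligand genes differed in how far DC1 alone had moved them. Cd274, the gene of PD-L1, was 6.04, 6.10, 6.09 and 5.64 in controls, 5.92, 6.52, 5.69 and 6.30 with the antibody and 8.13, 8.15, 7.51 and 6.97 with DC1. It read 8.31, 10.58, 9.61, 7.85, 9.19 and 9.23 in the combination. The DC1 samples were above the controls, and those of treated tumors reached past the lowest combination sample, 7.85, from an untreated tumor. Within each kind of tumor every combination sample was above every DC1 sample. The Cd274 interaction was 1.30 (SE 0.54, adjusted p 0.238) on top of a DC1 change of 1.72 (adjusted p 0.0458). Pdcd1lg2, the gene of PD-L2, had an interaction of 2.50 (SE 1.10), and its combination samples spread from 4.88 to 11.63. Without raised values Ctla4, an inhibitory receptor that competes with CD28, had an interaction of 2.89, but it was above the limit in only 2 samples, and with raised values the estimate was 0.32.

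Lat, the adaptor that links the T cell receptor to its downstream signals, was above the limit in 5 samples, all in the combination. Its combination samples read 6.54, 7.56, 6.13, 2.78, 5.39 and 5.33, and all others were at or under 4.0. The interaction of 2.96 (SE 0.84, adjusted p 0.124) fell to 0.38 with raised values, so its size is not measured. Zap70, the kinase bound to the activated receptor, had 2.28 as deposited and 0.55 with raised values. The receptor chain Cd3e had an interaction of 2.00 (0.42 with raised values), the coreceptor Cd4 2.01 (0.79), the costimulatory receptor Cd28 2.38 (0.71) and the costimulatory receptor Icos 2.25 (0.86). Each of these 4 genes was above the limit in 4 combination samples and in at most 1 sample of any other arm. Gzmb, a granule protease of killer cells, had an interaction of 0.80 with an interval from -0.65 to 2.26. Tbx21, a transcription factor of type 1 T cells, went from 2.22 to -0.16 with raised values. That is near the -0.23 that the limits alone give a gene at or under the limit in every sample. The 16 genes for cytotoxic lymphocytes had a median of 0.84 as deposited and 0.04 with values raised to the limit.

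**Figure D2:**
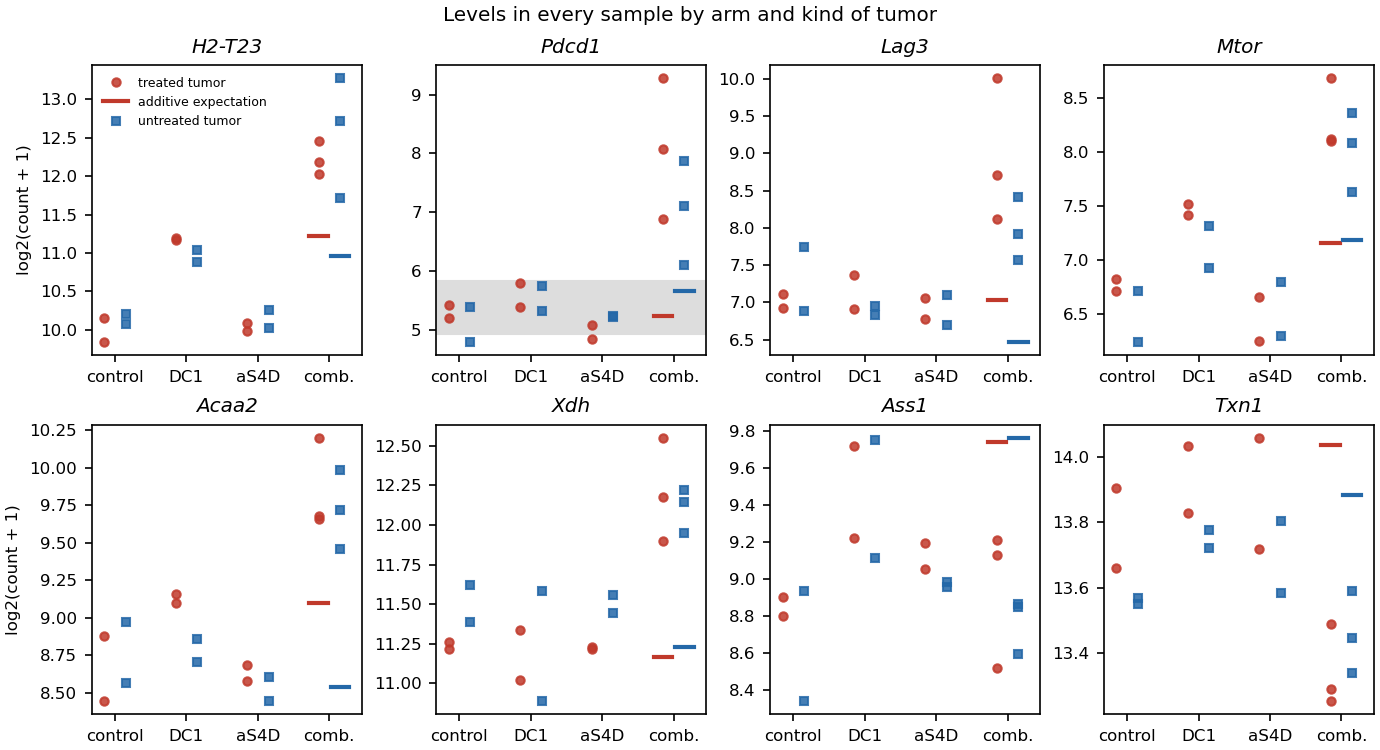
Levels of 8 genes as log2(count + 1) in every sample, by arm on the horizontal axis (aS4D, anti-semaphorin 4D, and comb., the combination) and by kind of tumor (circles, treated; squares, untreated). Short bars mark the additive expectation for that kind of tumor and the grey band the range of negative control limits. The combination samples of H2-T23, Pdcd1, Mtor, Acaa2 and Xdh all lie above the other samples, and those of Ass1 and Txn1 lie below the additive expectation. The genes shown were picked with their values known, and the share of panel genes with such separation was not counted.

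Signaling genes that were bright in all samples gave smaller but tighter departures. Mtor, the kinase that couples nutrient supply to growth, was 6.82, 6.71, 6.71 and 6.25 in controls, 6.25, 6.66, 6.30 and 6.79 with the antibody and 7.41, 7.52, 6.93 and 7.31 with DC1. In the combination it was 8.10, 8.68 and 8.12 in treated and 7.63, 8.36 and 8.09 in untreated tumors. Every combination sample was above every DC1 sample, and every DC1 sample above all controls. The interaction of Mtor was 0.99 (SE 0.27, interval 0.41 to 1.57, adjusted p 0.124). Akt1s1, a substrate and inhibitor of the mTOR complex, had 0.64 (SE 0.23), and the upstream kinase Akt2 had 0.61 (SE 0.22). The list of 28 MYC and mTOR genes as a whole had a median of 0.20, near the panel median, with 19 positive, near the share of the panel, and 6 of unadjusted p under 0.05.

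Stat5a, which carries signals of interleukin 2 and other cytokines, ranged from 7.08 to 7.69 in the 3 other arms. It read 8.30, 8.74, 8.31, 7.64, 8.12 and 7.99 in the combination, with overlap at 1 sample, from an untreated tumor. Within each kind of tumor every combination sample was above the other arms. The Stat5a interaction was 0.80 (SE 0.23, adjusted p 0.124). Nfkb2, the precursor of the p52 subunit of the alternative NF-kB pathway, had the smallest p among 14 toll-like receptor and NF-kB genes. One of its 3 listed RefSeq promoters (GRCm38.p6, plus strand, chr19:46305445-46305744) is shown because it holds an NF-kB site, searched on both strands with the letters given in capitals.
Nfkb2: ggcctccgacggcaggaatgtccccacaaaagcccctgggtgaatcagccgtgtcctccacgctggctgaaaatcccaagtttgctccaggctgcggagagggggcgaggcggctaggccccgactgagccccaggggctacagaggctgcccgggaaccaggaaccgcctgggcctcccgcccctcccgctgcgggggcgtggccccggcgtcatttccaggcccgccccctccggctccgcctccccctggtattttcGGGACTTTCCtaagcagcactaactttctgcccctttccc
These letters were found in 0.155% of all listed promoters and in 0.535% of those of panel genes, 4 promoters of the panel in all.

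The Nfkb2 level was 8.30, 8.56, 8.46 and 8.03 in controls, 8.16, 8.55, 8.12 and 8.58 with the antibody and 9.45, 9.47, 8.69 and 9.17 with DC1. The combination read 10.03, 11.04, 10.41, 9.45, 10.37 and 10.38, and only its lowest sample met the DC1 range. That sample was from an untreated tumor and lay above the untreated-tumor DC1 samples. The interaction was 1.07 (SE 0.34, interval 0.36 to 1.79, adjusted p 0.147). Rela, the p65 subunit of the classical pathway, had 0.68 (SE 0.29), and the inflammatory cytokine Tnf had 0.60 with an interval that included 0. Of the 14 genes of this list 11 were positive and 2 had an unadjusted p under 0.05, the latter no more than the 14.5% of the panel, with a median of 0.23 that became -0.05 after median centring.

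Metabolic enzymes were among the genes of smallest p. Acaa2, the thiolase of the last step of mitochondrial fatty acid oxidation, was 8.45, 8.88, 8.57 and 8.97 in controls, 8.69, 8.58, 8.61 and 8.45 with the antibody and 9.16, 9.10, 8.71 and 8.86 with DC1. It was 9.66, 10.20 and 9.68 in treated and 9.46, 9.98 and 9.72 in untreated combination tumors. The 6 combination samples were above all others, while the remaining arms overlapped. The interaction was 0.96 (SE 0.23, interval 0.48 to 1.45), with the smallest unadjusted p of the genes named here, 0.000687, and an adjusted p of 0.124. The fatty acid oxidation list, Acaa2 included, had 6 of 8 genes positive and a median of 0.08, under the panel median.

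Xdh, which makes uric acid from purines, was 11.22, 11.26, 11.39 and 11.62 in controls, 11.22, 11.23, 11.45 and 11.56 with the antibody and 11.34, 11.02, 11.58 and 10.89 with DC1. The combination samples read 11.90, 12.55, 12.18, 11.95, 12.22 and 12.15, above all the others. Its interaction was 0.96 (SE 0.24), where the DC1 change was -0.17 and the antibody change -0.01. Cat, the peroxide-degrading catalase, lay between 10.45 and 10.90 in the other arms and between 11.28 and 11.62 in the combination, with an interaction of 0.62 (SE 0.17). Ogdh, a subunit of the oxoglutarate dehydrogenase of the TCA cycle, lay between 8.49 and 9.25 in the other arms and between 9.30 and 9.64 in the combination, with 0.63 (SE 0.16). Cat and Ogdh, like Xdh, were higher in every combination sample than in any other sample, a separation whose share over the panel was not counted. All 3 genes had an adjusted p of 0.124.

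Nsd1, a histone H3 lysine methyltransferase, ranged from 7.20 to 8.09 outside the combination and from 8.39 to 9.70 in it, with an interaction of 1.03 (SE 0.30). Egfr, the receptor of epidermal growth factor and a relative of HER2, had 0.96 (SE 0.26). Its lowest combination sample, 8.37 in a treated tumor, was under the highest DC1 sample, 8.50 in an untreated tumor. Within each kind of tumor every combination sample of Egfr was above the other arms. Hk3, a hexokinase of myeloid cells, was at or under 4.74 in every control and antibody sample and 6.36, 6.71, 5.37 and 5.25 with DC1. It reached 7.81, 10.21, 8.79, 6.28, 7.96 and 8.34 in the combination, of which only the lowest fell in the DC1 range. That sample was from an untreated tumor, where DC1 read 5.37 and 5.25. The Hk3 interaction of 2.22 (SE 0.64, adjusted p 0.124) was 2.05 with values raised to the limit. Kynu, an enzyme of kynurenine breakdown, had 1.80 (SE 0.53) as deposited and 1.06 with raised values, and Haao, a later enzyme of that route, had 0.81 with an interval from -0.29 to 1.91.

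Lysosomal enzymes formed a list with little change in the single arms. Of 18 autophagy and lysosome genes 16 had a positive interaction and 6 an unadjusted p under 0.05, against 61.6% and 14.5% of the panel, with a median of 0.83, while the median DC1 and antibody changes were both 0.17. Without treated-tumor combination replicate 2 the median interaction was 0.62. Naglu, which degrades heparan sulfate, ranged from 8.34 to 8.97 outside the combination and read 9.31, 10.16, 9.79, 9.16, 9.25 and 9.12 in it. Every combination sample was higher than every other sample, and the interaction was 0.72 (SE 0.25, adjusted p 0.192). Of the 8 macrophage genes 6 were positive and none had an unadjusted p under 0.05. Their median was 0.53, with 0.31 without treated-tumor combination replicate 2, and was 1.20 in treated and 0.28 in untreated tumors. Their summed counts were 6096 to 7700 in controls, 6725 to 8346 with the antibody, 4838 to 6795 with DC1 and 7128 to 17795 in the combination. Their part in the lysosomal values was not tested.

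For fatty acid and cholesterol synthesis 7 of 8 genes were positive and 5 had an unadjusted p under 0.05, against the same panel shares, with a median of 0.69. Here the antibody arm was on average below control, with a list median of -0.30. Acacb, an acetyl-CoA carboxylase, was 7.28, 7.05, 7.15 and 7.21 in controls and 6.33, 6.98, 6.58 and 6.94 with the antibody. It was 7.53, 6.79, 6.96 and 6.82 with DC1 and 7.58, 7.59, 6.90, 7.71, 7.89 and 7.63 in the combination. Its combination change against control was 0.38 (adjusted p 0.118), so the interaction of 0.99 (SE 0.29, adjusted p 0.126) came in part from single arms that lay under the controls. The antibody change was also below 0, without passing the test, for Fasn, the fatty acid synthase, with an interaction of 0.92 and an antibody change of -0.53, and for the desaturase Scd1, with 0.89 and -0.44. H6pd, which makes NADPH in the endoplasmic reticulum, had an interaction of 1.05 (SE 0.32) with an antibody change of -0.51.

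Stromal and other myeloid genes mostly had positive estimates with wide intervals. Col6a1, a collagen VI chain, read 9.86, 11.04 and 9.30 in treated combination tumors and 7.05, 6.73 and 7.56 in untreated ones. The other arms reached at most 7.27 in treated and 6.43 in untreated tumors, so the combination samples stood clear within each kind of tumor. The Col6a1 interaction was 1.88 (SE 0.67, adjusted p 0.208). Col4a1, a chain of basement membrane collagen, had 0.72 (SE 0.28). The extracellular superoxide dismutase Sod3 had 2.42 (SE 0.98), and glutamine synthetase, Glul, had 1.20 (SE 0.51). The myeloid lipoxygenase Alox15 had 1.91 and the leukocyte receptor Cd84 1.25, both with intervals that included 0. For Arg1, an arginase of myeloid cells, the interaction was 0.30 with an interval from -1.05 to 1.66, for the inducible nitric oxide synthase Nos2 it was 1.42 (0.13 with raised values), and for the scavenger receptor Cd163 it was -0.01 with an interval from -3.23 to 3.21.

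**Figure D3:**
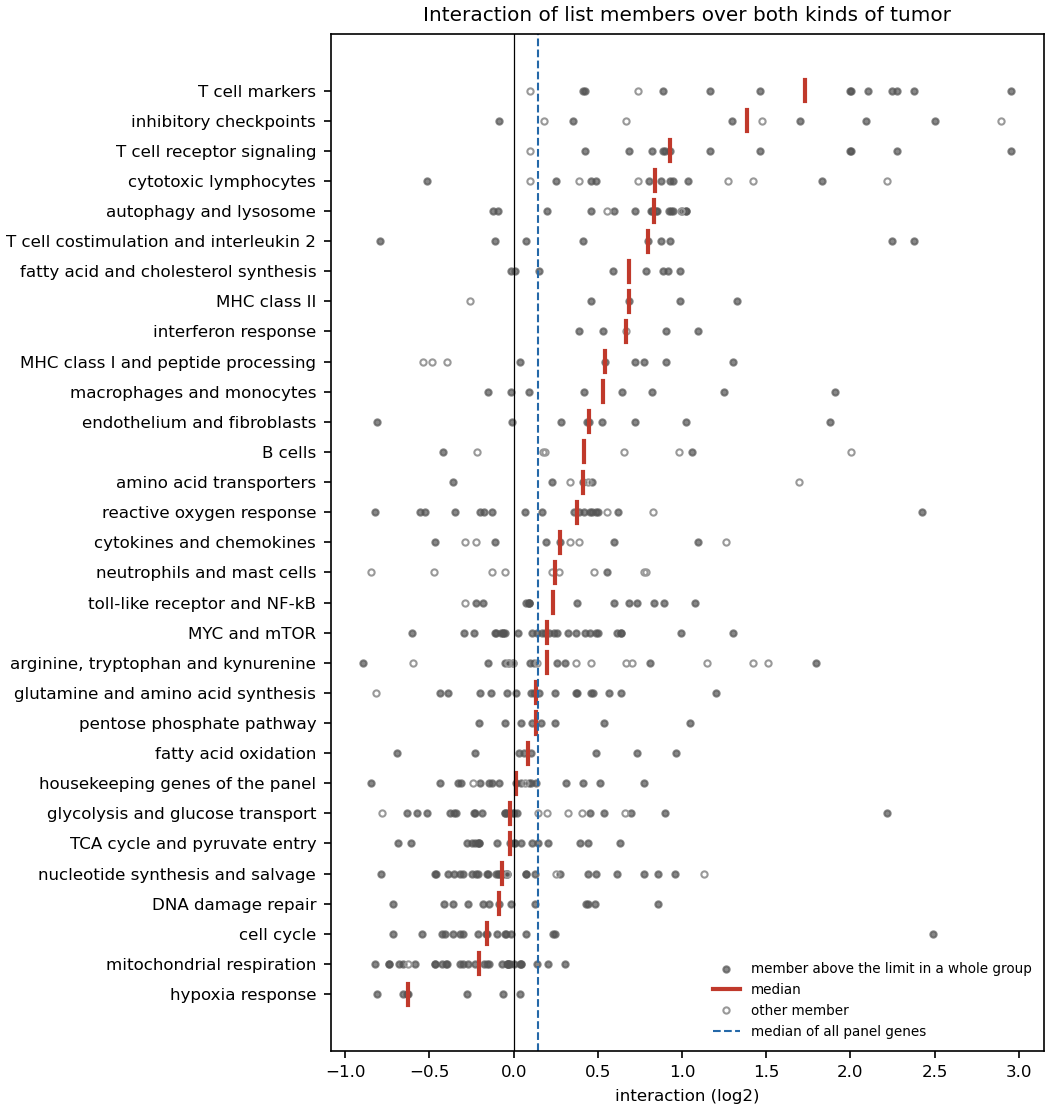
Interaction of the members of gene lists with at least 4 measured genes, in log2 over both kinds of tumor. Points are genes, filled where every sample of at least 1 group was above the negative control limit, red bars are list medians and the dashed line is the panel median of 0.15. On the deposited values T cell markers (1.73) and inhibitory checkpoints (1.39) have the highest medians and hypoxia response (-0.63) the lowest. With values raised to the limit, the medians of T cell markers and inhibitory checkpoints were 0.56 and 0.34. Both were then under the 0.82 of autophagy and lysosome.

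On the deposited scale fewer genes lay under additivity at an unadjusted p under 0.05 than above it, an order that median centring turned. Ass1, the argininosuccinate synthase that makes arginine from citrulline, had the smallest p among them. It was 8.90, 8.80, 8.93 and 8.34 in controls, 9.05, 9.19, 8.95 and 8.98 with the antibody and 9.22, 9.72, 9.11 and 9.75 with DC1. In the combination it was 8.51, 9.13, 9.21, 8.59, 8.86 and 8.85, which overlapped the controls, the antibody samples and 1 DC1 sample. Within each kind of tumor every combination sample was under every DC1 sample. The means of both single arms lay above control and the combination mean did not exceed either, which gave an interaction of -0.89 (SE 0.26, interval -1.44 to -0.35, adjusted p 0.124).

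Txn1, a thioredoxin that reduces disulfides, was 13.66, 13.91, 13.57 and 13.55 in controls, 14.06, 13.72, 13.80 and 13.58 with the antibody and 14.03, 13.83, 13.78 and 13.72 with DC1. The combination samples read 13.25, 13.29, 13.49, 13.45, 13.34 and 13.59, under all DC1 samples but overlapping the untreated-tumor controls and 1 antibody sample. The interaction was -0.56 (SE 0.18, adjusted p 0.151). Nadk2, the mitochondrial NAD kinase, was 7.72, 7.47, 7.84, 7.93, 7.62 and 7.80 in the combination and between 7.95 and 8.69 elsewhere, so no sample of the other arms was as low. It fell by 0.83 against control in the combination (adjusted p 0.000157), and its interaction was -0.58 (SE 0.19, adjusted p 0.151). For Map2k3, a kinase of the p38 pathway, all combination samples (8.71 to 9.04) were also below all others (9.06 to 9.40), with an interaction of -0.38 (SE 0.14). The share of panel genes with such separation was not counted, and the combination against control called 4.3% of the panel lower. Tnfrsf4, the costimulatory receptor OX40, had -0.79 (SE 0.30), opposite to the costimulatory receptors Cd28 and Icos.

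Subunits of the respiratory chain lay on the same side. Of 32 genes for mitochondrial respiration 25 had a negative interaction, against 295 of the 768 panel genes. In that direction 5 had an unadjusted p under 0.05, against 2.86% of the panel. Their median was -0.20 over all 32 genes, or -0.48 after median centring, where the panel median was -0.13. The list median was -0.39 in treated and -0.012 in untreated tumors, a difference that was not tested for the list. Ndufb4 of complex I had -0.82 (SE 0.32) and Cox6b1 of complex IV had -0.66 (SE 0.26). Ndufb4 was 9.80, 10.19, 9.57 and 8.96 in controls, 10.57, 9.90, 9.83 and 9.52 with the antibody and 10.24, 10.66, 9.27 and 9.90 with DC1. It was 9.74, 9.23, 9.61, 9.49, 9.56 and 9.50 in the combination, within the range of the other arms over both kinds of tumor. Among treated tumors every combination sample was under every sample of the other arms. Ppargc1a, a coactivator of mitochondrial genes, had -0.70 (SE 0.29), the nucleolar chaperone Npm1 had -0.90 (SE 0.35) and the proteasome subunit Psma3 had -0.54 (SE 0.23).

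Of 7 hypoxia-response genes 6 were negative, against 295 of the 768 panel genes, but none had an unadjusted p under 0.05. The list had the lowest median of the lists shown, -0.63, or -0.91 after median centring. Vegfa, the vascular growth factor, was 8.47, 8.64, 8.66 and 7.61 in controls and 8.91, 9.76, 8.85 and 9.72 with DC1. It was 8.37, 8.33, 8.50 and 8.69 with the antibody and 8.18, 9.58, 8.52, 8.54, 8.68 and 8.23 in the combination. The DC1 mean was the highest of the 4, and the interaction was -0.81 with an interval from -1.70 to 0.07. The glucose transporter Slc2a1 had -0.64 and lactate dehydrogenase A, Ldha, -0.58, both with intervals that included 0. Glycolysis genes as a list were near 0, with 11 of 26 positive and a median of -0.02, and so were the 19 TCA cycle genes, with a median of -0.02.

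Among 18 cell cycle genes 14 were negative, against 295 of the 768 panel genes. The list median was -0.16, or -0.44 after median centring. It was -0.025 without treated-tumor combination replicate 2, -0.42 in treated and 0.049 in untreated tumors. Ube2t, a ubiquitin-conjugating enzyme of the Fanconi repair pathway, was listed there and had -0.72 (SE 0.33), while Ube2c, which acts in mitotic exit, had -0.54, the mitotic kinase Plk1 -0.17 and the proliferation marker Mki67 0.23, all 3 with intervals that included 0. The 3 measured genes listed for the epithelial tumor cells were Trf, which encodes transferrin, the carbonic anhydrase Car12 and the folate receptor Folr1. Their interactions were -0.49, -0.63 and -0.25, none with an unadjusted p under 0.05. Their summed counts ran from 90504 to 131991 in controls, 91239 to 114193 with the antibody, 97563 to 128441 with DC1 and 47134 to 101710 in the combination. Their part in the negative interactions was not tested.

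**Figure D4:**
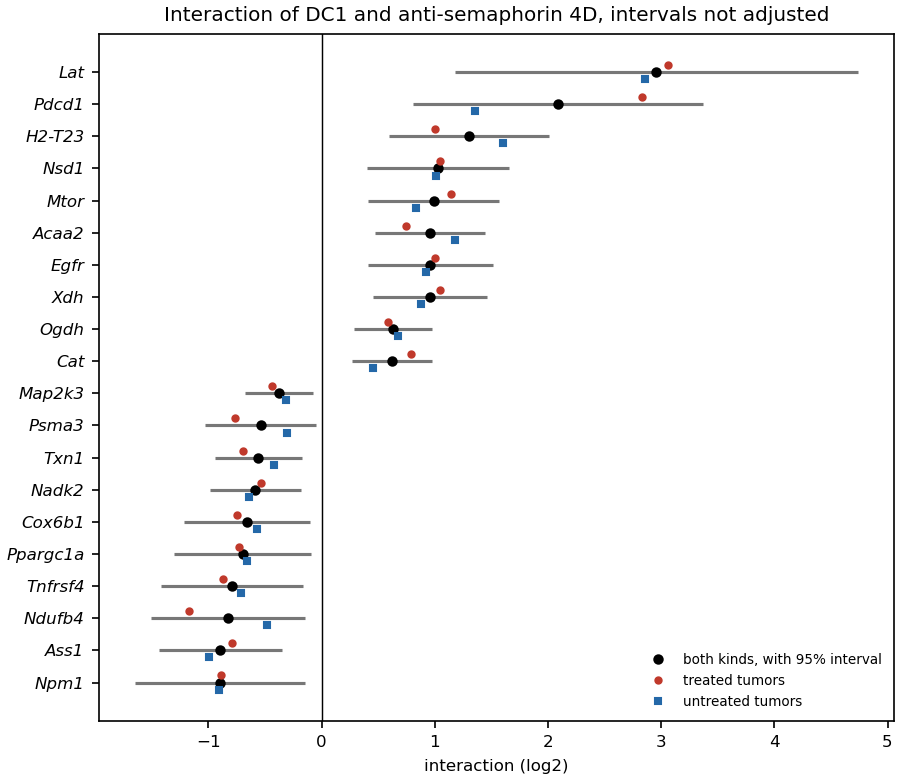
Interaction in log2 of 10 positive and 10 negative genes, with unadjusted 95% intervals over both kinds of tumor (black) and the estimates within treated (red) and untreated (blue) tumors. The genes had the smallest p of their sign among those above the negative control limit in a whole group of samples. Housekeeping genes were left out. The intervals exclude 0 because the genes were chosen by p. Both kinds of tumor have the same sign for every gene shown, which that choice also favours, because the estimate it used averages both kinds. No gene passed adjustment.

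The interaction can be computed within treated and within untreated tumors, which share no samples. Treated tumors called 0 genes (0.0%), with 69 at an unadjusted p under 0.05 (8.98%), and untreated tumors called 0 (0.0%), with 53 (6.9%). Across the 768 genes the estimates of both kinds of tumor had Pearson r = 0.575 and Spearman rho = 0.559, where genes are not independent and same-numbered samples may come from 1 mouse. Their signs were the same for 541 genes (70.4%), of which 355 were positive and 186 negative in both, and for 341 of the 462 bright genes (73.8%). Of the 64 positive genes (8.33%) of unadjusted p under 0.05 in treated tumors 56 were positive in untreated tumors, where 470 of all 768 were, and all 5 negative ones (0.651%) were negative there. Of the 42 positive genes (5.47%) in untreated tumors 41 were positive in treated tumors, and 9 of the 11 negative ones (1.43%) were negative.

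The genes given next had the same sign in both kinds of tumor with different sizes, and choosing genes by p over both kinds favours a shared sign. H2-T23 had 1.00 in treated and 1.61 in untreated tumors, Mtor 1.15 and 0.84, Lag3 1.91 and 1.49, and Ass1 -0.79 and -0.997. Pdcd1 had 2.83 and 1.35, Pdcd1lg2 3.71 and 1.30, Cd28 3.53 and 1.22, and Col6a1 2.43 and 1.32. The difference of the interaction between both kinds of tumor was tested directly and called 0 genes (0.0%), with a smallest adjusted p of 0.998. Only 10 genes (1.3%) had an unadjusted p under 0.05, and 8 of them were above the limit in no sample.

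**Figure D5:**
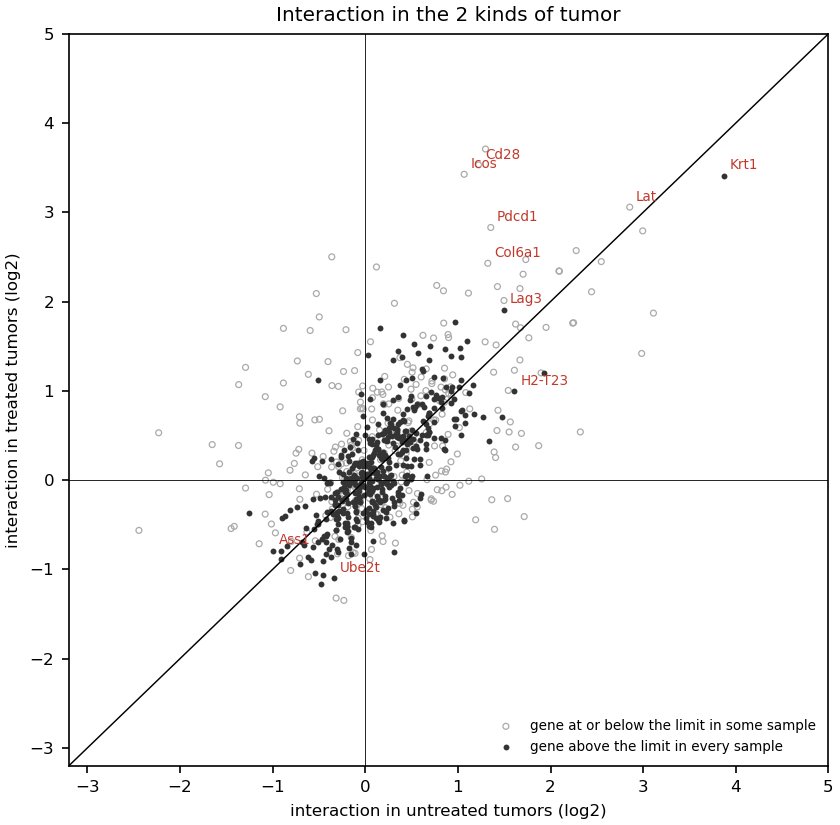
Interaction in untreated tumors (horizontal) against treated tumors (vertical), in log2, for 768 genes. Filled points are genes above the negative control limit in every sample and the line marks equality. Lat and Lag3 lie in the upper right near the line, Pdcd1, Cd28, Icos and Col6a1 above it, and Ass1 and Ube2t in the lower left.

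Additivity on the log2 scale is a choice of scale, so the departure was also taken on counts, as the combination mean minus the DC1 and antibody means plus the control mean. On that scale 494 genes were positive and 41 genes had the other sign than on the log2 scale. All 111 positive and all 22 negative genes of unadjusted p under 0.05 kept their sign. Those genes were chosen by their log2 interaction in the same data, which favours a kept sign.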

How the data were processed

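RNA of 18 tumors was counted on a NanoString nCounter panel, which counts barcoded probes on single RNA molecules without amplification. The deposited values are log2 values, for which limma is the tool named per the submitters' processing notes, while its role, its version and any filtering or background correction were not given in the sources used here. Read from the values, the authors' log2 values are of counts plus 1, in 12 columns after scaling by 1 factor per sample (whole within 0.05 once the factor was removed). Depth and negative control limits are given in the report.

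No scaling was added. Fits used lmFit and eBayes of limma 3.58.1 in R 4.3.3, with terms for DC1, anti-semaphorin 4D, their product and the kind of tumor, and had 13 residual and 2.86 prior degrees of freedom. Values within a kind of tumor came from 1 mean per group (10 residual, 3.02 prior). P-values were adjusted over 768 genes by Benjamini-Hochberg within each of 7 comparisons at a threshold of 0.05. The procedure was tested on simulated data. Intervals cover the spread between samples only.

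Named genes were the 10 of smallest p in each direction among genes above the limit in every sample of at least 1 group, up to 3 members of smallest p from each list of 4 or more measured genes, the 4 of smallest p in each direction within a kind of tumor and for the difference, and a fixed set. Housekeeping genes were left out of the naming, and not all named genes are printed. Krt1 was chosen after its values were seen. The members, lists and tests were chosen with earlier results of these data known. Tables and promoter searches used pandas 2.3.3, scipy 1.17.1 and numpy 2.4.6 under Python 3.11.15, and promoters came from RefSeq. Alternatives changed the scaling, the treatment of dim genes, the pseudocount, the variance model, the blocks and the samples. One of them, leaving out the 2 samples of fewest counts, was chosen after seeing the data.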

Additional observations from a re-analysis of the deposited data

How the results depend on the processing

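The interaction called 0 genes under each scaling, filter, floor, pseudocount, variance and block alternative run, apart from array weights with 158. Those weights fell to 0.163 (treated-tumor combination replicate 2), 0.186 (untreated-tumor DC1 replicate 1) and 0.304 (untreated-tumor control replicate 2). Leaving out 1 sample gave between 0 and 8 calls over both kinds of tumor, 8 without untreated-tumor combination replicate 1 and 3 without treated-tumor DC1 replicate 1. Within untreated tumors the scaled columns alone called 1 gene, and leaving out 1 sample gave between 0 and 2. Within treated tumors and for the difference no alternative run called a gene. Whether the replicate numbers pair the samples is not settled by the labels. Deviations of same-numbered treated and untreated samples correlated at 0.709 in the DC1, 0.625 in the anti-semaphorin 4D and -0.0764 in the control arm, and at 0.301, -0.183 and 0.079 in the combination arm, so not every pair deviated together. In the DC1, anti-semaphorin 4D and control arms the number also goes with the column kind (whole or scaled) in both kinds of tumor. A shared mouse and a shared column kind therefore cannot be told apart there. With the number as a fixed replicate block 0 genes were called and 115 had an unadjusted p under 0.05, and with arm and number as a random block 0 and 98.

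DC1 against control, 12 genes, was the count that moved most: 0 with median centring, with the scaled columns alone and with arm and number as a random replicate block, 1 with housekeeping centring, 3 with values raised to the limit, 51 with column kind (whole or scaled) as a block, 57 with a variance trend and robust fit, 63 with the filter on dim genes and 357 with array weights. Leaving out 1 sample gave between 0 and 120, with 120 without untreated-tumor DC1 replicate 1 and 88 without treated-tumor combination replicate 2. Anti-semaphorin 4D called 0 throughout, and the combination 308 to 398 without 1 sample. The causes were not tested.

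Estimates kept their sign for H2-T23 (1.13 to 1.46 without 1 sample), Pdcd1 (1.76 to 2.37), Mtor (0.86 to 1.14) and Ass1 (-1.01 to -0.76). Signs turned for Gzmb with the scaled columns alone (-0.26), Tbx21 with values raised to the limit (-0.16), Mki67 with median centring (-0.044) and array weights (-0.032), Arg1 with array weights (-0.28), Plk1 with that block (0.032) and scaled columns alone (0.11), and Cd163 with raised values (0.77), log2 of count plus 32 (0.64), that block (0.031) and scaled columns alone (0.019). Without 1 sample Cd163 ranged from -0.82 to 0.55, Arg1 from -0.106 to 0.496, Mki67 from -0.064 to 0.55 and Folr1 from -0.42 to 0.088. Counts of few reads limit the dim T cell genes, whose sizes rest on values at or under the limit in the other arms. The turned sign of Tbx21 lies near the -0.23 that raised values give a gene at or under the limit in every sample.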

Other observations

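Krt1, a keratin of the outer skin, had the largest interaction of the panel, and it was chosen after its values were seen. It read 11.34, 11.63, 9.58 and 11.24 in controls, 10.30, 11.33, 10.43 and 10.72 with anti-semaphorin 4D, and 11.67, 7.96, 9.61 and 7.25 with DC1. In the combination it read 13.19, 13.71 and 10.78 in treated and 11.67, 13.20 and 12.51 in untreated tumors. The interaction was 3.64 (SE 1.06, 95% interval 1.40 to 5.88, adjusted p 0.124 in limma). DC1 replicate 2 was the lowest sample in both kinds of tumor, and the combination against control did not pass (1.56, adjusted p 0.0784).

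The 3 genes listed for dendritic cells all had positive estimates with a median interaction of 1.55, and 0.02 with values raised to the negative control limit. Their summed counts were between 33 and 85 with DC1, between 42 and 67 in controls and between 64 and 667 in the combination. For B cells 6 of 8 genes were positive, with a median of 0.42 that was -0.21 with raised values and 0.21 without treated-tumor combination replicate 2. For neutrophils and mast cells 6 of 10 were positive, near the 61.6% of the panel, with a median of 0.25 that was -0.21 with raised values and -0.074 without that sample. Both medians of -0.21 lie near the -0.23 that the limits alone give a gene at or under the limit in every sample.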
